A study of Homo sapiens with 12 samples.

Results

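Vehicle-treated HK-2 cells harvested after 48 h were set against vehicle-treated cells harvested after 24 h. The contrast was between 6 of the 12 arrays of the series, 3 control samples of each time, chosen by their labels alone. HK-2 is a human proximal tubule epithelial line, immortalised with papillomavirus oncogenes, whose products act on the p53 and RB proteins. All groups were kept in a mixture of DMEM and Ham's F12 with 5 mM glucose, 10 ng/ml EGF, 36 ng/ml hydrocortisone, insulin, transferrin and selenite, and serum is not among the listed components. Cells were plated at 700000 per well in 2 ml of medium and received vehicle 24 h later, at about 90% confluency, so the harvests fell 48 h and 72 h after plating. The other 6 arrays held cells given a high dose of a compound labelled Aa for 24 h or 48 h, again with 3 samples per time. The series belongs to a survey of how kidney-toxic compounds alter transcripts in this line. The sources used here do not name the vehicle, the compound or its dose, or say whether the medium was changed between harvests. A change between the times cannot be told apart from differences in harvest, plate or array handling, because each group was collected at 1 time.

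Expression was measured on Affymetrix arrays, and the deposited values are log2 signals made with GCRMA, a method that removes probe background, normalises the arrays together and combines probes into probe sets. A difference of 1 is a 2-fold change, and a value under log2 4 was treated as background. Each gene was read from 1 probe set, and the 11184 genes with 3 or more of the 12 arrays over log2 4 were tested. Samples with the same biological replicate number deviated together (r 0.551 to 0.565 between the control times), so each 48 h sample was paired with the 24 h sample of its number. For different numbers r was -0.368 to -0.164. Deviations were taken from means of 3 samples, so positive values for same numbers push these below 0 by construction. A gene was called when limma's Benjamini-Hochberg adjusted p was under 0.05 in this paired fit, which took its residual spread from all 12 arrays. The words "rose" and "fell" are used for called genes only. Values are listed for replicates 1, 2 and 3 in that order, with n = 3 per time.

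An epithelial sheet that reaches confluency divides less often, and many of its cells leave the cell cycle. In dividing cells E2F transcription factors switch on the genes of DNA synthesis, and later a complex of MuvB proteins with MYBL2 and FOXM1 switches on the genes of mitosis. In resting cells related complexes hold both sets down. Cells that remain in the same medium also use up nutrients and growth factors and deposit a matrix beneath them, and tubule cells in dense culture can regain some transporters of the kidney.

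From 24 h to 48 h, 30 of 34 tested mitosis genes and 22 of 39 DNA replication genes fell and none rose. Of 25 amino acid stress genes 7 rose, and of 11 proximal tubule genes 4 rose, with no falls in either list. In all 1669 genes were called (14.9% of those tested), of which 744 rose (6.65%) and 925 fell (8.27%). A change of at least 2-fold was reached by 72 of those that rose and 43 of those that fell. Direction was the same in all 3 pairs for 1668 of the called genes, a count raised by construction because the call used these pairs. For 1086 of the called genes the 3 values of one time all lay on one side of the 3 of the other. Over all genes tested, 10.9% had the 48 h values all above and 11.8% all below those of 24 h.

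The number of calls rested on the pairing and on single arrays. Without the replicate block 71 genes passed, 31 upward (0.277%) and 40 downward (0.358%), and all 71 were among the 1669. On the 6 control arrays alone 1114 passed with the block, 893 of them shared with the 1669, and 0 passed without it (limma; 1836 had an unadjusted p under 0.05). Leaving out replicate 1, 2 or 3 of 24 h left 615, 463 and 851 calls, and leaving out replicate 1, 2 or 3 of 48 h left 473, 540 and 1534. Of 119 called genes selected by the naming rule, 47 passed in all 6 of these fits, 18 without the block and 87 on the 6 control arrays with it.

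Rises and falls are both relative to the other transcripts of an array. Since GCRMA gives every array almost the same spread of values, a shift common to most transcripts would be hidden. The manufacturer's hybridisation controls, added at equal amounts to each array, read 10.60 to 10.75 on the 24 h control arrays and 10.87 to 11.02 on the 48 h control arrays. Scaling to them moved the median change of all genes from -0.0086 to -0.32, with 124 genes up and 3946 down, so that 3.05% of calls were upward in place of 44.6%. This scaling shifts every gene in a sample by the same amount, so falls grow and rises shrink by construction. With it 21 of the 60 rising genes of the naming rule passed, and all 59 falling genes did.

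The labelled cell type was checked against marker genes. The 5 epithelial markers (KRT8, KRT18, KRT19, EPCAM and CDH1) were over log2 4 on all 6 control arrays. Of 11 proximal tubule markers measured, DPP4, PAX8, SLC4A4 and SLC3A1 were over log2 4 on all 6 and LRP2, CUBN, AQP1, ANPEP, GGT1, SLC34A1 and SLC22A6 on none. All 10 measured leukocyte markers and 7 of 9 endothelial markers were under log2 4 on all 6 arrays. The fibroblast list had DCN, LUM and COL1A1 over log2 4 and its other 6 genes, PDGFRA, PDGFRB and THY1 among them, under it. The log2 of its summed linear signal spanned 12.27 to 12.77 at 24 h and 12.19 to 12.44 at 48 h, and its part in the matrix results below was not tested. RNA quality, read as the 3' minus 5' difference of ACTB probe sets, spanned 0.68 to 0.86 at 24 h and 0.58 to 0.98 at 48 h. The reference transcripts ACTB (-0.17, SE 0.0737, adjusted p = 0.159) and GAPDH (0.03, SE 0.0685, adjusted p = 0.843) were not called, and GAPDH read -0.29 after scaling to the hybridisation controls.

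Genes of mitosis fell across most of their list. All 34 tested members were lower at 48 h, 30 of them fell and none rose, and the median change was -0.53, against -0.0086 over all genes. The median was -0.48, -0.54 and -0.57 in pairs 1, 2 and 3, and every setting tried kept it below 0. Without the block 5 members passed, and the 6 fits that left out 1 control array called 13 to 26. The fewest were called without replicate 1 of 48 h, followed by 15 without replicate 2 of 24 h, 16 without replicate 2 of 48 h and 18 without replicate 3 of 24 h. In bulk RNA, fewer cells in mitosis and less of each transcript per cell cannot be told apart.

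Promoters of the mitosis and replication lists were searched for short elements. The CHR element (TTTGAA or TTTAAA) is where MuvB complexes bind, often a short way from a CCAAT box. On either strand of the RefSeq window from 250 bases before to 50 after the gene start (GRCh38.p14), CHR letters stood in 25 of the 29 mitosis promoters found (86.2%), against 15.9% of 9245 tested genes and 24.5% of all 27305 promoters of that length. CCAAT stood in 24 of the 29 (82.8%) and in 19 of 34 replication promoters (55.9%), against 37.1% of tested genes. Of the 34 replication promoters, 3 held CHR letters (8.82%), while 16 (47.1%) held one of the E2F words TTTCCCGC, TTTGGCGC, TTTCGCGC or TTTGCCGC, against 5.37% of tested genes and 10.3% of the mitosis promoters. The letters may overlap, and a match describes the window, not a bound site. The stretches of 150 bases before the start are shown for 3 mitosis and 2 replication genes that fell. They were picked because they hold the element there, so they do not stand for the genes that fell most. MCM10 (-1.18), CDC45 (-1.11) and CDC6 (-0.99) fell further than the 2 replication genes shown. Capitals mark the CHR or E2F letters and CCAAT, which reads ATTGG on the other strand, as GCGGGAAA reads for TTTCCCGC. All lie on the plus strand.
CDCA8, chr1:37692366-37692515: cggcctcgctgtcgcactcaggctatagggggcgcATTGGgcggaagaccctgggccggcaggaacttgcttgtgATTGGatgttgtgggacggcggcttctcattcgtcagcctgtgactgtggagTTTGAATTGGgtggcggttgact
CDC20, chr1:43358831-43358980: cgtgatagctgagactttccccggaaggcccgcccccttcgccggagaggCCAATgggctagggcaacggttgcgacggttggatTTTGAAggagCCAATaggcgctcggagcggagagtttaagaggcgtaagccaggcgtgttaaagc
KIF23, chr15:69414199-69414348: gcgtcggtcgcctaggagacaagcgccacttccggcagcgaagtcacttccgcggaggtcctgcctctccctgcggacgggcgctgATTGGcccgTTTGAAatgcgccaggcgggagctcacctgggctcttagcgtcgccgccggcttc
POLA2, chr11:65261812-65261961: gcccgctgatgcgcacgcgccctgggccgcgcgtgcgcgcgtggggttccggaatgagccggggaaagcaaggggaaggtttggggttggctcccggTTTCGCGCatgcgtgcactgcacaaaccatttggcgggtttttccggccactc
UHRF1, chr19:4909351-4909500: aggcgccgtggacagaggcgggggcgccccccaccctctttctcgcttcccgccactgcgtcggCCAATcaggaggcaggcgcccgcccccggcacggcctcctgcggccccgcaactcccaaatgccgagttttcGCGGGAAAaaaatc

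CDCA8, a subunit of the chromosomal passenger complex whose promoter is the first shown, read 10.61, 10.45 and 10.98 at 24 h and 9.71, 9.59 and 10.16 at 48 h. Its fall of 0.86 (SE 0.0914, adjusted p = 0.0026) was 1.82-fold, and the times did not overlap. CDC20, the activator of the anaphase-promoting complex, read 11.77, 11.69 and 12.17 and then 11.11, 10.66 and 11.33 (-0.84, SE 0.0844, adjusted p = 0.00245). The cyclin gene CCNA2 read 11.34, 11.37 and 11.60 and then 10.40, 10.46 and 10.93 (-0.84, SE 0.0958, adjusted p = 0.00314). In each of these genes the highest 48 h value was below the lowest 24 h value. MKI67, the proliferation marker, read 11.84, 11.91 and 12.16 and then 11.11, 11.11 and 11.53, a fall of 0.72 (adjusted p = 0.00579) shared by all 4 of its probe sets. The mitotic kinase genes AURKB (-0.76), PLK1 (-0.72) and AURKA (-0.59), the motor gene KIF23 (-0.74) and the survivin gene BIRC5 (-0.63) also fell. CDK1, the main mitotic kinase, had the smallest called fall, -0.31. BUB1 (-0.45), NEK2 (-0.33), NUSAP1 (-0.20) and PTTG1 (-0.20) were lower without being called. CCNA2, MKI67, CENPE, CCNB1 and PRC1 were the 5 members that passed without the block.

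DNA replication genes fell less evenly. Of 39 tested members 22 fell and none rose, with a median of -0.39 and medians of -0.38, -0.50 and -0.19 in pairs 1, 2 and 3. The licensing and origin-firing genes led: MCM10 read 8.46, 8.61 and 8.93 at 24 h and 7.22, 7.23 and 8.02 at 48 h, a fall of 1.18 (SE 0.114, adjusted p = 0.00236) in all 3 probe sets. CDC45, part of the replicative helicase, read 8.52, 8.64 and 8.75 and then 7.19, 7.29 and 8.10 (-1.11, SE 0.138, adjusted p = 0.00426). CDC6, which loads the helicase, read 9.42, 9.75 and 9.83 and then 8.28, 8.51 and 9.24 (-0.99, SE 0.14, adjusted p = 0.00559). In all 3 genes the fall was smallest in pair 3, although the times did not overlap. POLA2 of the primase complex (-0.85), the GINS gene GINS4 (-0.72), the origin gene ORC1 (-0.67) and UHRF1, which keeps DNA methylation through replication (-0.65), followed. Not all members moved: PCNA (-0.15), MCM2 (-0.14), RRM1 (-0.05) and PRIM1 (0.08) were not called, nor was CDT1 (0.24). MCM10 and CDC45 passed without the block, and 8 to 22 members passed with 1 control array left out. The lowest counts were 8 without replicate 2 of either time, 9 without replicate 1 of 24 h and 10 without replicate 1 of 48 h.

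Of 21 regulators of cell cycle entry 8 fell, 13 did not pass and none rose, with a median of -0.29 (38.1% fell, against 8.27% of all genes). MYBL2, the MuvB partner at mitosis promoters, read 10.39, 10.04 and 10.47 and then 9.30, 8.86 and 9.85 (-0.96, SE 0.14, adjusted p = 0.0058). FOXM1 read 9.68, 9.26 and 9.83 and then 8.92, 8.58 and 9.10 (-0.72, SE 0.111, adjusted p = 0.00672). E2F2 fell by 0.80, CCNE1 by 0.67, CDC25A by 0.59 and CDK6 by 0.41, and the repressor genes E2F7 and E2F8 fell by 0.58 and 0.47. CCND1, which growth factor signals induce, had 7.96, 7.64 and 8.95 and then 7.58, 7.85 and 8.25, with overlapping times and no call (-0.29, adjusted p = 0.4). MYC was higher in every pair, by 0.29 in the fit, without passing (adjusted p = 0.0692), and read -0.02 after scaling to the hybridisation controls.

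Other growth-linked lists gave fewer calls, against 6.65% of all tested genes that rose and 8.27% that fell. DNA repair and checkpoint genes fell in 5 of 20 (median -0.32), led by CLSPN (-1.04), which carries the replication checkpoint signal, EXO1 (-0.91) and the helicase gene BLM (-0.80). The variant histone gene H2AX (-0.90) and H2BC12 (0.68) were the called members of 9 histone genes. Ribosome biogenesis genes fell in 6 of 18, among them UTP20 (-0.51), NOP2 (-0.43) and RRS1 (-0.40), with a median of -0.16. With 1 control array left out, 0 to 3 of these 6 still passed. Cyclin-dependent kinase inhibitors and growth arrest genes rose in 4 of 15 and fell in 1. CDKN1C, which encodes p57, read 8.78, 8.53 and 7.99 and then 9.47, 8.99 and 8.70, higher by 0.47 to 0.71 in each pair although the times overlapped (0.62, SE 0.0953, adjusted p = 0.00672). TOB1 (0.59) and CCNG1 (0.43) also rose. CDKN1B, the p27 gene, was higher at 48 h in each pair but was not called (0.56, adjusted p = 0.063), and neither was CDKN1A (-0.17, adjusted p = 0.624). With hybridisation-control scaling CDKN1C (adjusted p = 0.0953), TOB1 (0.23) and CCNG1 (0.572) no longer passed. Of 21 p53 targets 1 rose (4.76%; CYFIP2, 0.97) and 3 fell (14.3%), including TIGAR (-0.54) and TP53I3 (-0.50), while MDM2 was at 0.03 and not called. No p53 target passed without the block. In the 6 fits with 1 control array left out, CYFIP2 and TIGAR each passed in 1 and TP53I3 in 0.

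**Figure D1:**
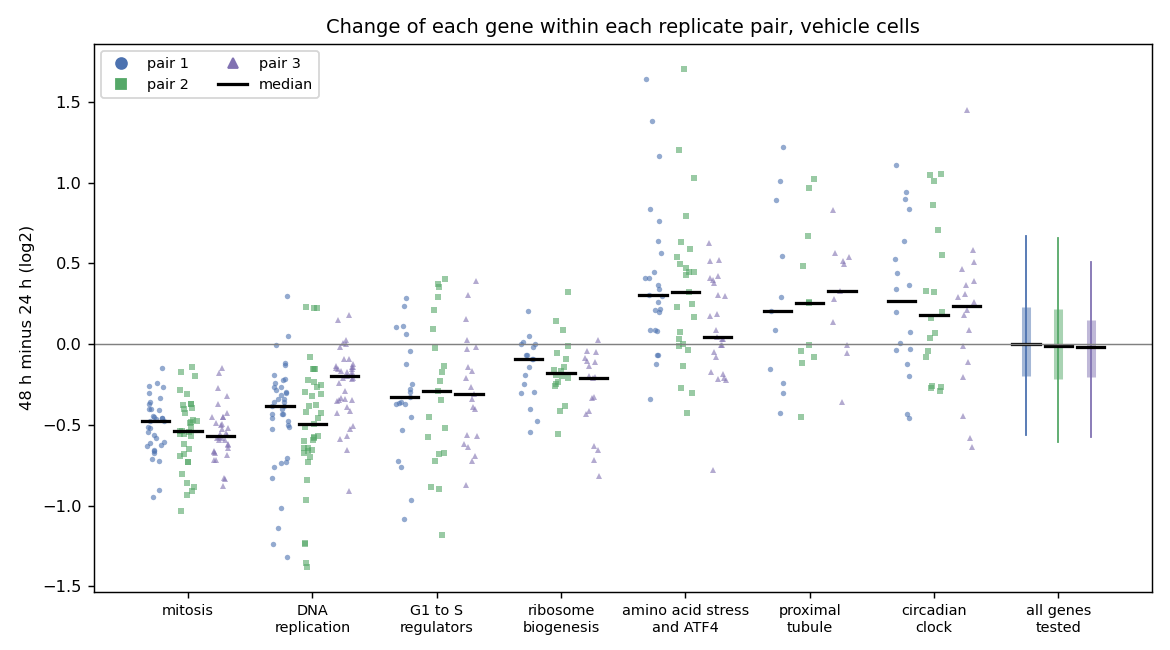
Change from 24 h to 48 h (48 h minus 24 h, log2) of every tested gene in 7 gene lists, 1 column of points per replicate pair, with black bars at the median; for all 11184 genes the thick bar spans the middle 50% and the thin line the middle 90%. Mitosis genes lie below 0 in all 3 pairs, with medians of -0.48, -0.54 and -0.57, while replication genes are lower in pairs 1 and 2 (-0.38 and -0.50) than in pair 3 (-0.19).

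TAGLN, MMP1 and TNFAIP6 were among the 12 largest fitted falls of called genes whose times did not overlap. TAGLN, an actin-binding protein of contractile cells, read 7.25, 6.47 and 6.77 at 24 h and 3.44, 3.29 and 4.55 at 48 h, a fall of at least 6.25-fold (adjusted p = 0.00235). A fold is given as "at least" where an array of the dimmer time was under log2 4, which then entered at log2 4. MMP1, the interstitial collagenase, read 7.27, 7.97 and 7.58 and then 3.85, 4.70 and 4.79, at least 8.62-fold lower (adjusted p = 0.002). TNFAIP6, which encodes a hyaluronan-binding protein, read 5.63, 6.05 and 6.96 and then 2.74, 2.40 and 2.80, so all 3 arrays of 48 h were at background (at least 4.64-fold lower, adjusted p = 0.00151). These 3 genes passed without the block and in every fit that left out 1 control array.

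Among the other large falls, SLN, a small regulator of the calcium pump, read 8.58, 8.01 and 9.07 and then 5.02, 4.23 and 7.55 (-2.95, SE 0.436, adjusted p = 0.00614). TM4SF4, a tetraspanin-like membrane protein, read 6.07, 7.06 and 6.59 and then 3.22, 5.01 and 4.63 (at least 4.06-fold lower, adjusted p = 0.00426). The long noncoding RNA LINC00973 fell by 1.96 (SE 0.282, adjusted p = 0.00562), from 7.10, 7.40 and 8.29 to 4.37, 5.55 and 6.98. In SLN and LINC00973 replicate 3 was the highest of its time at both harvests, and its own fall was the smallest. DPYSL3, a cytoskeletal protein of cell migration, read 9.41, 9.21 and 10.00 and then 7.98, 7.95 and 8.33 (-1.45, SE 0.108, adjusted p = 0.00116). The transcription factor KLF7 read 6.93, 7.23 and 7.61 and then 5.72, 6.03 and 5.67 (-1.45, SE 0.185, adjusted p = 0.00459). ZBED2 (at least 3.63-fold lower, adjusted p = 0.0449) and AFAP1L2 (at least 2.66-fold lower, adjusted p = 0.0121) completed these 12 falls without overlap with TXNIP and INHBA, described below. Called falls with overlapping times, FOSL1 and GAL among them, were not eligible for the 12. TM4SF4 and KLF7 passed without the block, and ZBED2 passed in 1 of the 6 fits with 1 control array left out.

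**Figure D2:**
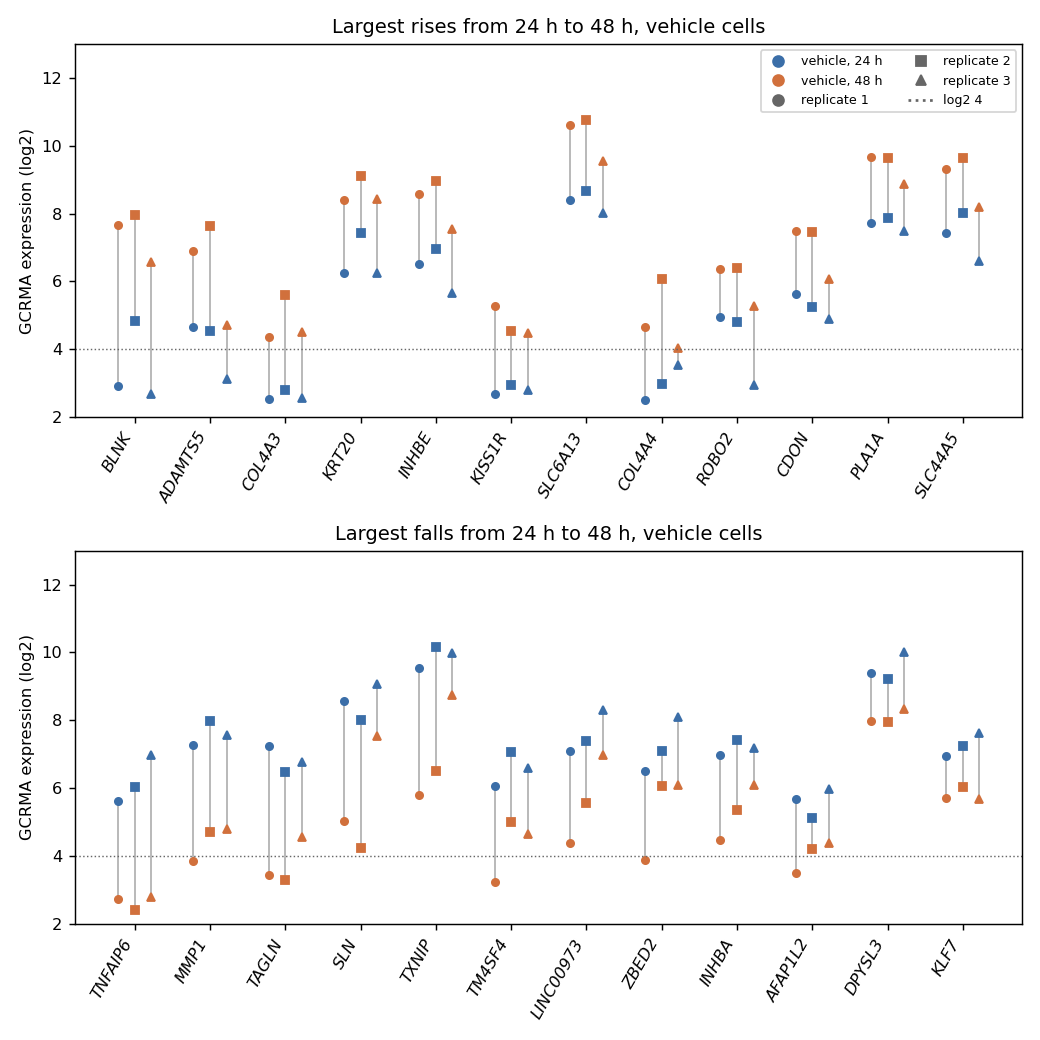
GCRMA expression (log2) of the 12 genes with the largest fitted rises (top) and falls (bottom) among called genes whose times did not overlap; each symbol is 1 array, grey lines join the 24 h (blue) and 48 h (orange) samples of a replicate, and the dotted line is log2 4. Several genes cross log2 4, among them TNFAIP6, with 5.63 to 6.96 at 24 h and 2.40 to 2.80 at 48 h, so their fitted changes have no order.

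Genes of the TGF-beta family and its known matrix targets were among those that fell. INHBA, which encodes the activin A subunit, read 6.99, 7.43 and 7.17 and then 4.47, 5.35 and 6.08 (-1.89, SE 0.424, adjusted p = 0.0223). THBS1, which encodes thrombospondin and activates latent TGF-beta, read 9.02, 8.58 and 8.45 and then 7.55, 7.68 and 7.06 (-1.25, SE 0.17, adjusted p = 0.0049). TGFBI, an adhesion protein of the matrix named for its induction by TGF-beta, read 11.20, 10.36 and 10.69 and then 9.78, 9.33 and 9.81 (-1.11, SE 0.128, adjusted p = 0.00329). The ligand gene TGFB2 fell by 0.53 and the latent TGF-beta binding protein LTBP2 by 0.63. Members in the other direction were the receptor gene TGFBR3 (0.53) and the inhibitor genes SMAD6 (0.49) and SKIL (0.44), all called. Their 3 rises became 0 without the block, with the mean over probe sets and with hybridisation-control scaling, 1 on the 6 control arrays with the block, and 0 to 2 with 1 control array left out, 0 without replicate 1 of either time and 1 without replicate 2 of either time or replicate 3 of 48 h. The falls of the list numbered 3 without replicate 1 of either time. In all 5 of 21 fell and 3 rose, and the median of the list was -0.0174, close to that of all genes. FN1 (-0.02), TGFB1 (-0.09) and SMAD7 (-0.23) were not called. THBS1 passed without the block, and INHBA passed in 1 of the 6 fits with 1 control array left out.

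Matrix proteases and their receptors fell in 4 of 15 measured genes and rose in 1. Beside MMP1, PLAT, the tissue plasminogen activator, read 6.40, 6.17 and 8.27 and then 4.63, 4.48 and 7.28 (-1.48, SE 0.334, adjusted p = 0.0228). PLAUR, the urokinase receptor, read 7.13, 7.06 and 7.67 and then 5.62, 5.29 and 7.06 (-1.30, SE 0.245, adjusted p = 0.0131). In both genes replicate 3 stood above the others at each time, so the times overlapped although every pair fell. MMP7, matrilysin, fell by 0.90 and MMP15 rose by 0.36, while the inhibitor TIMP1 (0.00) and PLAU (-0.23) were not called. Of 15 contractile and mesenchymal genes 5 fell: beside TAGLN these were the myosin light chain gene MYL9 (-0.87, SE 0.109, adjusted p = 0.00426), TAGLN2 (-0.75), the tropomyosin gene TPM1 (-0.41) and VIM (-0.29). ACTA2 (0.20), CNN2 (-0.07) and SNAI2 (-0.03) were not called, and S100A4 rose (0.44). Without 1 of the 6 control arrays PLAT reached adjusted p values of up to 0.0982 and VIM of up to 0.156.

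Collagen and laminin genes moved both ways. COL7A1, the collagen of anchoring fibrils, fell by 0.79 (SE 0.114, adjusted p = 0.0057), COL6A1 by 0.50 and the fibrillar collagen COL1A1 by 0.48, although 1 of the 3 probe sets of COL1A1 went the other way. All 5 genes that rose encode basement membrane proteins. COL4A3 read 2.54, 2.80 and 2.56 at 24 h, all background, and 4.36, 5.59 and 4.50 at 48 h (at least 1.76-fold higher, adjusted p = 0.00245). COL4A4 read 2.50, 2.98 and 3.53 and then 4.66, 6.08 and 4.04 (at least 1.9-fold, adjusted p = 0.0184). Both encode chains of the collagen network of the mature glomerular and tubular basement membrane and lie side by side on their chromosome. The crosslinking gene NID2 (0.72) and the laminin genes LAMB1 (0.43) and LAMC1 (0.32) also rose. COL4A1 (-0.01) and COL4A2 (0.05), the common network chains, were not called, and COL4A5 read 1.06 without passing. In all 5 of 20 rose and 3 fell, with a median of 0.09, which was negative when probe sets were averaged (-0.03) and with hybridisation-control scaling (-0.22). COL4A3 and NID2 passed without the block.

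**Figure D3:**
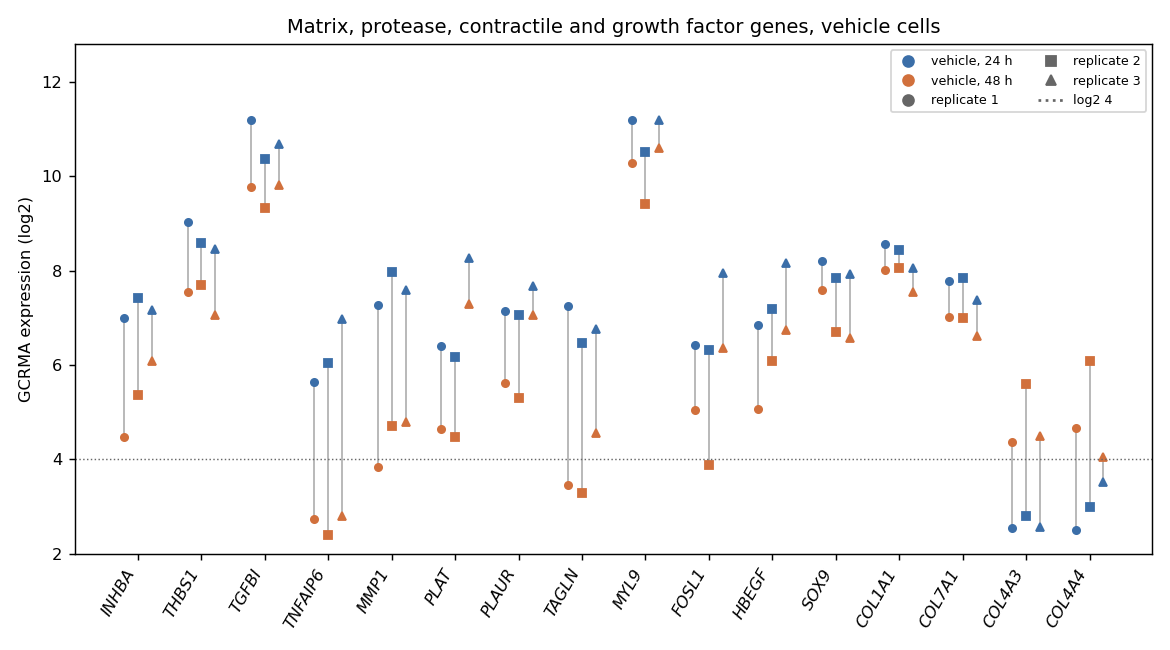
GCRMA expression (log2) of 16 matrix, protease, contractile and growth factor genes on the 6 control arrays, with lines joining the 24 h (blue) and 48 h (orange) samples of each replicate and log2 4 dotted. All are lower at 48 h in every pair except COL4A3 and COL4A4, which go from background (2.50 to 3.53) to 4.04 to 6.08; PLAT, PLAUR and FOSL1 are highest in replicate 3 at both times.

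Growth factor signalling genes changed in a few members, where 6.65% of all tested genes rose and 8.27% fell. HBEGF, a ligand of the EGF receptor, read 6.83, 7.18 and 8.16 and then 5.07, 6.09 and 6.75 (-1.42, SE 0.3, adjusted p = 0.0186). EGF itself read 3.62, 3.98 and 3.45 and then 4.01, 4.57 and 4.92 (at least 1.42-fold higher, adjusted p = 0.0252), and EGFR stayed at 11.77 to 11.90 and then 11.76 to 11.85 with no call. Among 19 genes that ERK signalling induces, FOSL1, an AP-1 subunit, read 6.42, 6.31 and 7.95 and then 5.04, 3.88 and 6.36 (at least 3.39-fold lower, adjusted p = 0.0215). The feedback inhibitor SPRY1 read 4.78, 4.78 and 3.11 and then 6.79, 6.36 and 4.60 (at least 2.63-fold higher, adjusted p = 0.0332). The rest of that list was not called, and of 16 immediate early genes ZFP36 alone was (0.40). FOS (-0.11), JUN (-0.24) and EGR1 (-0.33) were not called. AP-1 letters (TGANTCA, either strand) stood in 3.92% of the promoters of genes that fell and 4.53% of those of all tested genes. The hydrocortisone in the medium acts through the glucocorticoid receptor, and 2 of its 12 target genes rose (16.7%), TFCP2L1 (1.02) and TSC22D3 (0.77). The list median was 0.0076, and a part of hydrocortisone was not tested. Neither gene passed without the block, and with hybridisation-control scaling 1 target rose and 3 fell. YAP and TEAD targets, which respond to cell density, rose in 1 of 19 (MYOF, 0.33) and fell in 2, FJX1 (-0.31) and GADD45B (-0.41), with CCN2 at -0.07 and CCN1 at -0.29 uncalled. HBEGF, FOSL1 and TFCP2L1 each passed in 2 of the 6 fits with 1 control array left out, SPRY1, EGF and TSC22D3 in 1, and MYOF, FJX1 and GADD45B in 0.

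Genes of the differentiated tubule rose in part. Of 11 tested proximal tubule genes 4 rose and none fell (36.4%, against 6.65% of all genes), with a median of 0.29 that became -0.02 with hybridisation-control scaling. SLC4A4, the basolateral sodium bicarbonate cotransporter, read 11.49, 11.85 and 10.85 and then 12.50, 12.81 and 11.68. It was higher by 0.83 to 1.01 within each pair (0.93, SE 0.123, adjusted p = 0.00477), although replicate 3 at 48 h lay below replicate 2 at 24 h. PDZK1, an apical scaffold for transporters, read 10.65, 10.79 and 10.13 and then 11.54, 11.46 and 10.70 (0.71, SE 0.126, adjusted p = 0.0107). GATM, an enzyme of creatine synthesis, rose by 0.52 and DPP4, a brush border peptidase, by 0.29. SLC3A1, a subunit of the cystine transporter, read 0.91 without passing (adjusted p = 0.0657), and PAX8 (0.11) and CDH6 (-0.41) were not called. Of the 34 listed genes on the array 23 were not tested, the endocytic receptors LRP2 and CUBN among them, so the share covers only genes these cells express. None of the 4 passed without the block, and SLC4A4 was the 1 that passed with hybridisation-control scaling.

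Several kidney genes outside that list were also among those that rose at least 2-fold, and they were picked here after their values were seen. KL, the Klotho co-receptor gene, read 7.50, 7.61 and 7.43 and then 8.95, 9.00 and 8.11 (1.17, SE 0.17, adjusted p = 0.00574). FXYD2, which modulates the sodium pump, read 12.96, 12.98 and 12.60 and then 14.04, 14.12 and 13.41 (1.01, SE 0.139, adjusted p = 0.00511). GPX3, the secreted glutathione peroxidase made by tubule cells, rose by 1.02 (adjusted p = 0.00457) and SLC27A2, a fatty acid transporter and acyl-CoA synthetase, by 1.25 (adjusted p = 0.0199). Genes whose symbol begins with SLC, the solute carriers, rose in 29 of 217 (13.4%, against 6.65% of all genes) and fell in 14 (6.45%, against 8.27%), with a median of 0.04. The times did not overlap in KL, FXYD2, GPX3 or SLC27A2, and the smallest change of each except SLC27A2 was in pair 3.

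SLC6A13, a GABA and taurine transporter gene, was one of the 12 largest fitted rises among called genes whose times did not overlap. It read 8.40, 8.65 and 8.02 at 24 h and 10.62, 10.75 and 9.54 at 48 h (1.95, SE 0.163, adjusted p = 0.00151). BLNK, an adaptor best known from B cells, read 2.91, 4.83 and 2.69 and then 7.65, 7.96 and 6.56 (at least 8.66-fold higher, adjusted p = 0.00282). None of the 10 measured leukocyte markers was over log2 4. The matrix protease gene ADAMTS5 read 4.65, 4.55 and 3.13 and then 6.90, 7.65 and 4.73 (at least 4.07-fold, adjusted p = 0.0125). KRT20, a keratin of differentiated and injured epithelium, read 6.25, 7.44 and 6.26 and then 8.39, 9.10 and 8.43 (1.99, SE 0.272, adjusted p = 0.00505).

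The remaining large rises covered receptors and secreted proteins. INHBE, an activin subunit gene, had the smallest adjusted p of the named genes: it read 6.50, 6.97 and 5.65 and then 8.57, 8.95 and 7.55, an almost equal rise in each pair (1.98, SE 0.0788, adjusted p = 2.15e-05). PLA1A, a phosphatidylserine phospholipase, read 7.72, 7.86 and 7.48 and then 9.68, 9.65 and 8.86 (1.71, SE 0.113, adjusted p = 0.000538). CDON, a Hedgehog co-receptor, read 5.61, 5.23 and 4.90 and then 7.48, 7.45 and 6.06 (1.75, SE 0.293, adjusted p = 0.00894). KISS1R was at background on all 3 arrays of 24 h (2.69, 2.93 and 2.79) and read 5.27, 4.55 and 4.47 at 48 h (at least 1.7-fold, adjusted p = 0.00236). The axon guidance receptor ROBO2 rose at least 2.7-fold (adjusted p = 0.0177) and the choline transporter-like SLC44A5 by 1.70 (adjusted p = 0.0131). With 1 control array left out, SLC44A5 passed in 2 of the 6 fits, COL4A4 and ADAMTS5 in 3 and ROBO2 in 4. Of the 12 largest rises, BLNK, COL4A3, KISS1R, SLC6A13, PLA1A and CDON passed without the block, while INHBE, with paired changes of 1.90 to 2.06, did not (adjusted p = 0.092).

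KRT8, a keratin of simple epithelia, read 12.62, 12.20 and 12.37 and then 12.02, 11.32 and 12.09 (-0.59, SE 0.105, adjusted p = 0.0113), and its partner KRT18 read 13.44, 13.29 and 13.36 and then 12.75, 12.56 and 13.06 (-0.57, SE 0.107, adjusted p = 0.0128). With KRT20 these were the 3 calls among 10 keratin and envelope genes, of which 7 were below 0 (median -0.22). Of 26 epithelial junction genes 3 rose (11.5%, against 6.65% of all genes) and none fell: the polarity gene PARD6B (0.71), the kidney cadherin CDH16 (0.55) and the tight junction gene OCLN (0.47). Falls of this list numbered 1 on the 6 control arrays with the block, 2 with the mean over probe sets and 5 with hybridisation-control scaling. None of the 3 passed without the block, and CDH16 passed in 0 of the 6 fits with 1 control array left out. CDH1, E-cadherin, ran from 6.78 to 7.80 at 24 h and from 6.78 to 7.48 at 48 h and was not called. Of 10 integrin genes ITGB8 rose (0.81). Kidney injury markers rose in 2 of 20 and fell in 4, with SOX9, a factor of regenerating tubules, at 8.19, 7.84 and 7.92 and then 7.58, 6.70 and 6.58 (-1.04, SE 0.284, adjusted p = 0.0425). HAVCR1, which encodes the injury marker KIM-1, stayed between 11.49 and 11.75 on all 6 arrays (-0.02, adjusted p = 0.906). PARD6B, CDH16, OCLN and ITGB8 did not pass with hybridisation-control scaling, and SOX9 passed in none of the 6 fits with 1 control array left out (adjusted p of 0.0768 to 0.151).

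Among genes that respond to nutrients, TXNIP had the largest fall. TXNIP, which binds thioredoxin and limits glucose uptake and whose transcription follows glucose metabolites, read 9.55, 10.16 and 9.97 at 24 h and 5.78, 6.49 and 8.76 at 48 h. Its fall was 2.88 (SE 0.47, adjusted p = 0.00807) in all 3 probe sets, but replicate 3 fell far less than the other replicates. Its relative ARRDC4, under the same glucose-responsive control, read -0.84 and was not called. TXNIP was the 1 fall among 23 genes of nutrient withdrawal and FOXO signalling, of which KLHL24 (0.82) and BCL6 (0.67) rose. Both passed in 1 of the 6 fits with 1 control array left out and neither with hybridisation-control scaling (adjusted p = 0.12 and 0.164). The rises of the list numbered 0 without the block, 0 without replicate 1 or 2 of either time, 1 without replicate 3 of 24 h and 5 on the 6 control arrays with the block.

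Of 25 targets of ATF4, the factor that responds to amino acid shortage, 7 rose and none fell (28%, against 6.65% of all genes). DDIT3, the CHOP gene, read 8.25, 8.44 and 8.56 and then 9.89, 9.64 and 9.08 (1.12, SE 0.192, adjusted p = 0.00946). SLC7A11, the cystine importer, read 6.63, 6.77 and 6.79 and then 7.47, 8.47 and 7.09 (0.95, SE 0.225, adjusted p = 0.0266). CTH, which makes cysteine, rose by 0.73, TRIB3 by 0.55, PSPH of serine synthesis by 0.46 and the amino acid transporter SLC38A2 by 0.38. STC2 rose by 0.79 (adjusted p = 0.045), with 1 of its 2 probe sets going the other way and replicate 3 almost level (5.47 and 5.42). ATF4 itself (0.33), ASNS (0.22) and PSAT1 (0.21) were not called. The list's median of 0.25 came from pairs 1 and 2 (0.30 and 0.32) more than pair 3 (0.04), and became -0.07 with hybridisation-control scaling, where 2 members passed upward. With 1 control array left out, 1 to 7 members passed, the fewest without replicate 1 of 48 h (1), without replicate 1 of 24 h (2) and without replicate 2 of 48 h (2). The letters TGATGNAA, found in ATF4 sites, stood in 3 of the 22 promoters found for this list (13.6%), against 1.68% of tested genes.

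A few lipid and iron genes rose. ACSL1, which activates fatty acids, read 11.87, 12.18 and 11.82 and then 12.75, 13.38 and 12.81 (1.02, SE 0.0989, adjusted p = 0.00236). It was 1 of 3 genes of fatty acid synthesis and storage to rise among 17 (17.6%, against 6.65% of all genes; list median 0.0031), with LPIN1 (0.41) and SCD (0.32). Cholesterol synthesis genes rose in 4 of 18 (22.2%), INSIG1 (0.67), MSMO1 (0.42), STARD4 (0.40) and SC5D (0.32), and fell in 1, NSDHL (-0.34). HMGCS1 (0.15) and SQLE (0.22) were not called. Iron genes rose in 2 of 11 (18.2%), the importer SLC11A2 (0.51) and the iron-sensing FBXL5 (0.45). ACSL1 passed with hybridisation-control scaling, and LPIN1, SCD, INSIG1, MSMO1, STARD4, SLC11A2 and FBXL5 did not.

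Clock genes rose in 4 of 18 and fell in 1, with a median of 0.21 that became -0.10 with hybridisation-control scaling. PER2, a repressor of the clock, read 5.77, 6.21 and 5.66 and then 6.88, 7.27 and 5.93 (0.81, SE 0.207, adjusted p = 0.0342). HLF (0.82), BHLHE41 (0.82) and PER3 (0.42) also rose, BMAL2 fell (-0.44), and DBP read 1.07 without passing. The core genes CLOCK (0.11) and BMAL1 (-0.17) were not called. None of the 4 that rose passed without the block. With 1 control array left out, 0 to 5 clock genes rose, with 0 called without replicate 1 or 2 of either time.

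Immune lists held few calls, in both directions, to be read against the 6.65% of all tested genes that rose and the 8.27% that fell. Of 28 interferon-response genes IFITM1 (0.72), IFIH1 (0.44) and IFITM3 (0.34) rose (10.7%), while OAS3 (-0.96) and ISG15 (-0.45) fell (7.14%). OAS3, an antiviral nucleotide synthetase, read 7.88, 8.22 and 8.12 and then 6.67, 7.24 and 7.42 (SE 0.163, adjusted p = 0.00922), and IFITM1 read 11.14, 11.42 and 10.25 and then 11.95, 11.96 and 11.07 (SE 0.102, adjusted p = 0.00559). CFB, a complement protease, read 7.04, 7.30 and 6.54 and then 8.14, 8.51 and 7.60 (1.12, SE 0.152, adjusted p = 0.0049). With CD55 (0.42) and FGB (-0.53) it made up the calls among 8 complement and acute phase genes (25% rose and 12.5% fell). The chemokine gene CCL2 rose (0.99, SE 0.159, adjusted p = 0.0076), and RELA (-0.37) and RELB (at least 1.29-fold lower) fell, among 18 NF-kB, cytokine and chemokine genes (5.56% rose and 11.1% fell). Of 16 MHC class I genes B2M rose (0.25) and PSMB10 fell (-0.46), 6.25% each way. B2M read -0.06 with hybridisation-control scaling. OAS3, IFITM1, CFB, CCL2 and PSMB10 passed in all 6 fits with 1 control array left out, and ISG15, RELA and B2M in none.

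The other stress and metabolism lists gave few calls each, where 6.65% of all tested genes rose and 8.27% fell. Hypoxia and glycolysis genes rose in 3 of 27 (BNIP3, 0.51; BNIP3L, 0.52; PFKFB3, 0.37) and fell in 2, EGLN3 (at least 2.01-fold lower) and PKM (-0.34), while SLC2A1 (-0.22) and LDHA (0.01) were not called. NRF2 targets rose in 2 of 20, SLC7A11 and UGDH (0.37), and fell in 2, GCLM at -0.38 among them, with HMOX1 (-0.17) not called. Calls were 1 of 22 for oxidative phosphorylation (NDUFB5, 0.39), 1 of 14 for heat shock (HSPA4, -0.37) and 2 of 20 for endoplasmic reticulum chaperones (DNAJB9, 0.52, and SDF2L1, -0.59). Metallothionein and zinc export genes gave MT1M (-0.46) and SLC30A1 (0.36) among 8. The lysosome list gave NEU1 (0.53) and HEXA (0.34) among 23, apoptosis BCL2L1 (-0.70) among 15, and aryl hydrocarbon receptor targets NFE2L2 (0.40) among 8. No member of these lists passed without the block. BNIP3L, EGLN3, UGDH, GCLM, NDUFB5, HSPA4, DNAJB9, MT1M, HEXA, BCL2L1 and NFE2L2 each passed in 1 of the 6 fits with 1 control array left out. SLC7A11, SDF2L1 and SLC30A1 passed in 2, BNIP3 in 3 and NEU1 in all 6. No gene was called among 19 Notch and Wnt targets, although LGR4 read 0.73. Of 21 primary cilium genes none was called, with 17 above 0 and a median of 0.18 (-0.13 with hybridisation-control scaling). None of the 5 tested distal nephron and podocyte markers or 2 endothelial markers was called, and COL1A1 was the call among 3 fibroblast markers.

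**Figure D4:**
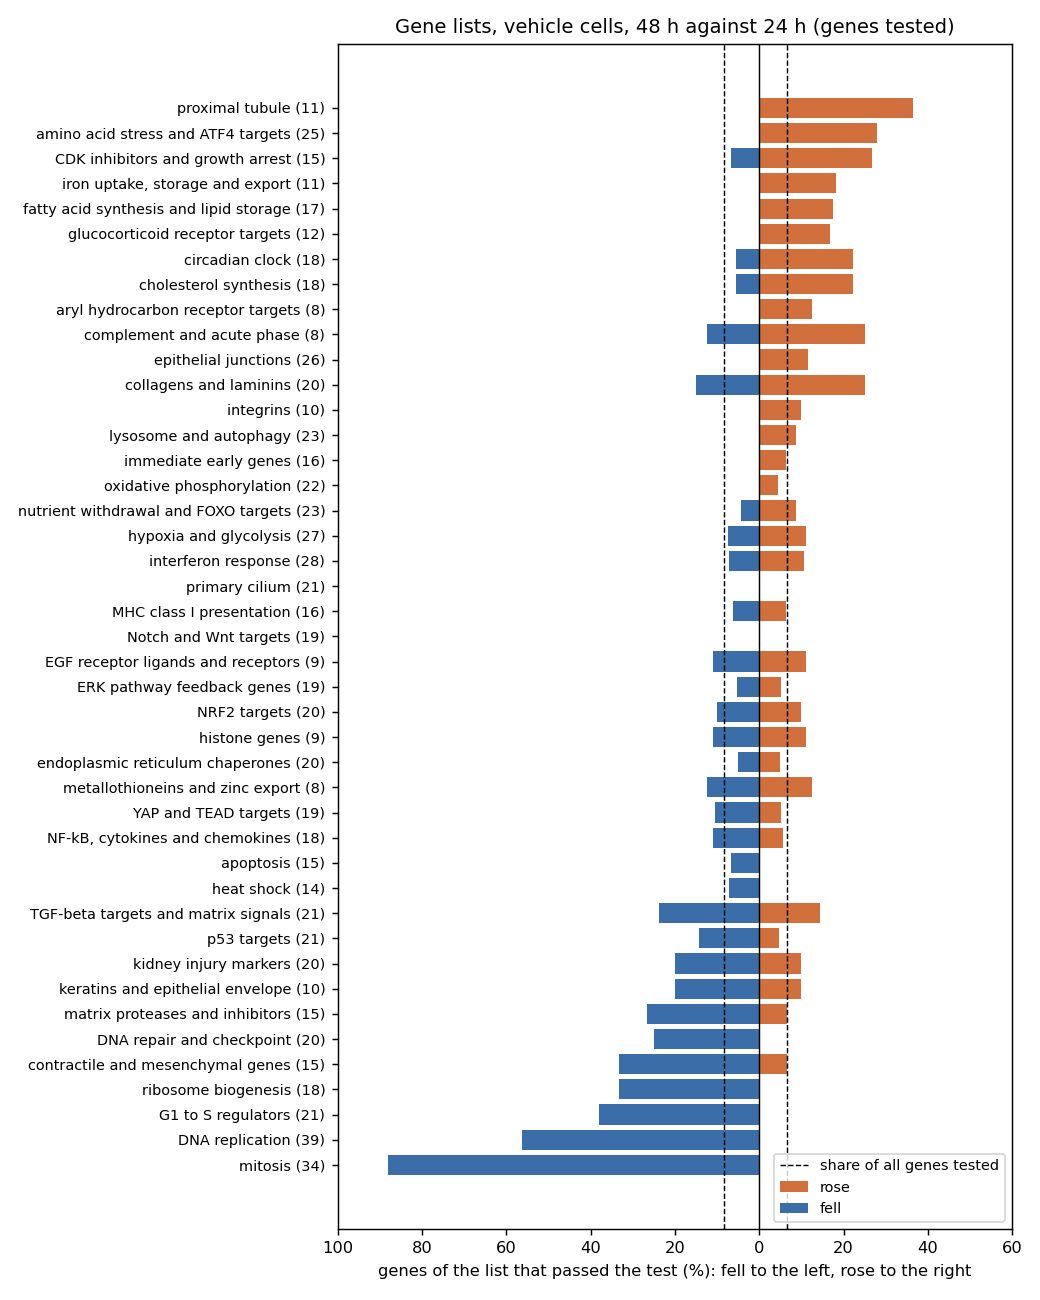
Share of the tested genes of each list with at least 8 tested members (number in brackets) that fell (blue, to the left) or rose (orange, to the right) from 24 h to 48 h; dashed lines give the shares of all tested genes, 8.27% and 6.65%. Mitosis, DNA replication and cell cycle entry genes stand out to the left with 30 of 34, 22 of 39 and 8 of 21, and proximal tubule and ATF4 target genes to the right with 4 of 11 and 7 of 25.

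The change with time in vehicle cells was compared with that in cells given Aa, since both treatments were harvested at both times. The test took the change in Aa cells minus the change in vehicle cells, and over all genes 15.4% were positive and 23.1% negative at adjusted p under 0.05, 38.6% in all. Of the 1669 genes called in vehicle cells 1109 differed, a count raised by construction because the vehicle change is part of the difference. Over all tested genes 16.1% rose and 28.5% fell with time in Aa cells, and the counts that follow are to be read against these shares. In Aa cells 785 of the 1669 also changed with time, 316 in the same direction and 469 in the opposite one. Of those that rose in vehicle cells, 112 rose and 253 fell in Aa cells, and of those that fell, 204 fell and 216 rose.

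Mitosis genes showed little shared decline in Aa cells, where their median time change was 0.05 with 9 up and 6 down, and 25 of 34 differed from vehicle cells in the positive direction. MKI67 rose by 0.61 in Aa cells (difference 1.33, SE 0.147, adjusted p = 0.000566). Means at 24 h were lower in Aa than in vehicle cells for CDC20 (10.665 and 11.874) and CCNA2 (10.74 and 11.44). CDCA8 (10.35 and 10.68) and MKI67 (11.80 and 11.97) were lower by less, and these levels were not tested. The Aa mean at 24 h was below the vehicle mean at 48 h for CDC20 and above it for CCNA2, CDCA8 and MKI67. A small change with time thus does not show that Aa cells kept the 24 h level of vehicle cells. Replication genes also declined in Aa cells, where 20 of 39 fell with a median of -0.25, and 13 differed positively and 5 negatively. Of all tested genes 16.1% rose and 28.5% fell in Aa cells, with a median time change of -0.07. Positive differences named by the rule were TNFAIP6, SLN (4.58), SOX9 (3.86), LINC00973 (3.58) and PLAT (3.44), all of which fell in vehicle cells and rose in Aa cells. TNFAIP6 was under log2 4 on all 3 vehicle arrays of 48 h, and with values under log2 4 entered at log2 4 its difference was at least 3.60. PLAT, for example, changed by -1.48 in vehicle cells and 1.95 in Aa cells (adjusted p = 0.00123 for the difference). TAGLN and MMP1, also with vehicle arrays of 48 h under log2 4, changed by -0.53 and -0.96 in Aa cells, less than in vehicle cells by at least 2.12 and 2.15 (adjusted p = 0.00215 and 0.00346 for the fitted differences).

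Among genes that rose in vehicle cells, the negative differences named by the rule were BLNK, INHBE (-3.07), TMEM170B, KBTBD11 and KLHL24 (-2.60). TMEM170B and KBTBD11 had Aa arrays of 48 h under log2 4, and with those entered at log2 4 their differences were -2.68 and -2.34, each a lower limit on the size. INHBE fell by 1.09 in Aa cells. BLNK was under log2 4 on all 6 Aa arrays, so its change there and its difference could not be measured. SLC4A4 fell by 1.11 in Aa cells against its rise in vehicle cells (difference -2.05, SE 0.174, adjusted p = 0.000298), and 5 of the 11 proximal tubule genes differed negatively and 1 positively. Of the ATF4 targets 9 of 25 differed negatively and 3 positively. DDIT3 rose in both, by 1.12 and 0.70, and no difference was shown (-0.42, adjusted p = 0.25). The falls of KLF7 (-1.45 and -0.90) and E2F2 (-0.80 and -0.64) were likewise not shown to differ (adjusted p = 0.13 and 0.501).

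**Figure D5:**
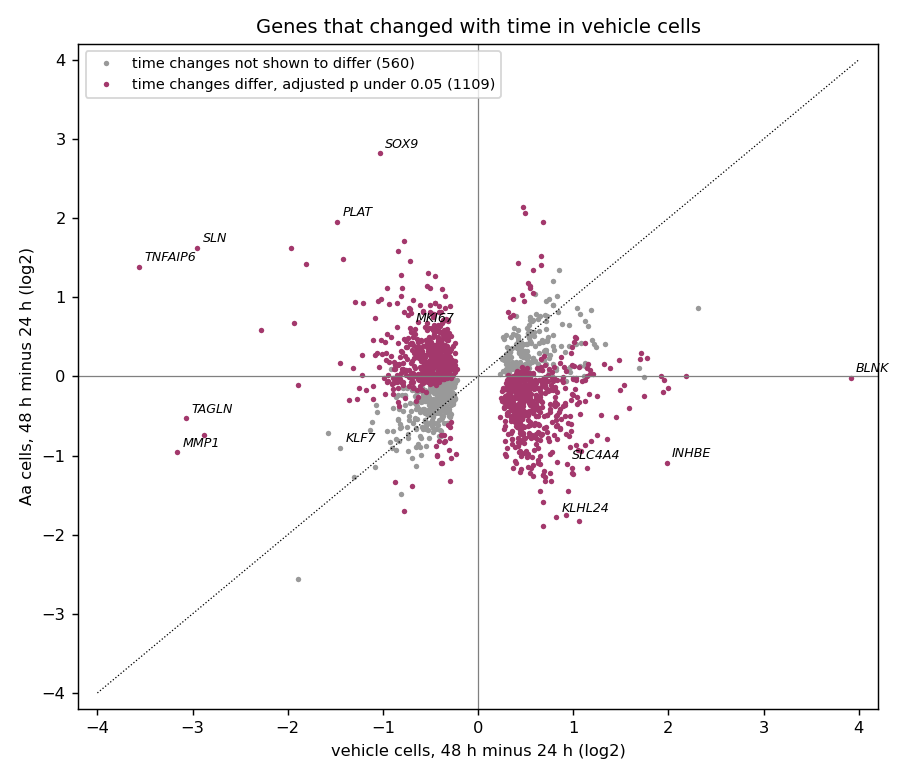
Change from 24 h to 48 h (log2) in Aa cells (vertical axis) against that in vehicle cells (horizontal axis) for the 1669 genes called in vehicle cells; purple points are the 1109 whose changes differ at adjusted p under 0.05, grey points the other 560, and the dotted line marks equal change. Genes such as TNFAIP6, SLN, SOX9 and PLAT lie left of 0 and above it, and BLNK lies far to the right near the horizontal axis, with all 6 Aa arrays under log2 4.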

How the data were processed

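RNA of 12 HK-2 cultures in 4 groups of 3 was measured on Affymetrix arrays. The deposited values are log2 signals from GCRMA, according to the submitters' processing notes. Neither its version nor the set of arrays normalised jointly is given in the sources used here. Of 54675 probe sets, 62 were controls, 41091 named 1 gene, 1801 several and 11721 none in the platform annotation; 41037 matched RefSeq (GRCh38.p14) by Entrez number. Each of 19775 genes was read from its probe set of highest mean over the 12 arrays, and 11184 over log2 4 on 3 arrays were tested.

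Group means with the replicate number as a fixed block were fitted to all 12 arrays with limma 3.58.1 in R 4.3.3 (lmFit, eBayes; 6 residual and 2.72 prior degrees of freedom), and every adjusted p of a gene is limma's. The median SE of the time change was 0.113, and 0.161 without the block; the number of arrays limits this precision. Over all groups, deviations from group means correlated at 0.279 to 0.577 for the 18 pairs of same-numbered samples, which is the basis of the pairing. The other 36 pairs, at -0.371 to -0.0286, are pushed below 0 by construction and add no separate support. The labels call the samples biological replicates without saying how the cultures were separated. The p-values of the main fit measure the spread left among these 12 arrays once group means and the replicate offset are taken out, not the full spread between replicates. The fit was tested on simulated data.

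The naming rule took the 12 largest rises and falls without overlap, up to 3 called genes of each of 47 lists, 5 genes each way for the difference from Aa cells, and a set of control and marker genes. The comparison, lists and rule were chosen with earlier results of these data known. Symbol families and the kidney genes outside the list were picked after seeing values. Alternatives were no block, the 6 control arrays alone, quantile normalisation, equal array medians, hybridisation-control scaling, other filters, the mean over probe sets, an intensity trend and leaving out each control array. Promoter motifs were counted by exact letters in RefSeq promoters.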

Additional observations from a re-analysis of the deposited data

Results flagged for a closer look

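The change from 24 h to 48 h differed between Aa cells and vehicle cells for 98 of the 134 genes of the naming rule (limma, adjusted p under 0.05 for the change in Aa cells minus the change in vehicle cells, log2, n = 3 per group and time). It was more positive in Aa cells for 49 and more negative for 49, and 38.6% of all tested genes differed in the same test. Genes chosen for a change in vehicle cells enter this test with that change already in the difference. Each value below is that fitted difference. In 18 of the 98 genes an array was under log2 4, so their values have no order. For TNFAIP6, MMP1, TAGLN, TM4SF4, FOSL1, EGLN3, CCL2, RELB, TMEM170B and KBTBD11 entering such arrays at log2 4 gives a lower limit on the size, as for CCL2 (-1.76) and TM4SF4 (2.61). BLNK, COL4A3, KRT20, KISS1R, COL4A4, ROBO2, CDON and SLC44A5 were under log2 4 in Aa cells at both times (on 2 of 3 arrays of 24 h for KRT20), so no limit can be given.

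Among the largest falls and the matrix, protease and contractile genes, the Aa change was more positive in TNFAIP6 (4.95), MMP1 (2.20), TAGLN (2.54), SLN (4.58), TXNIP (2.14), TM4SF4 (2.87), LINC00973 (3.58), INHBA (1.78), DPYSL3 (1.62), THBS1 (1.11), TGFBI (0.99), COL1A1 (0.86), COL7A1 (0.68), PLAT (3.44), PLAUR (2.24) and TAGLN2 (1.20). Cell cycle and DNA repair genes on the positive side were CDCA8 (0.85), CCNA2 (0.53), CDC20 (0.99), MKI67 (1.33), MCM10 (1.01), CDC6 (0.97), MYBL2 (0.90), FOXM1 (0.80), CCND1 (1.89), CLSPN (1.16), EXO1 (0.81), H2AX (0.87) and H2BC12 (1.26). Growth factor, injury and keratin genes on that side were FOSL1 (3.22), HBEGF (2.90), SOX9 (3.86), CCN2 (1.76), GADD45B (1.22), FJX1 (0.63), KRT8 (0.87) and KRT18 (0.66). Stress, immune and ribosome genes on that side were TIGAR (0.54), TP53I3 (1.62), EGLN3 (1.30), UTP20 (0.78), NOP2 (0.78), HSPA4 (0.61), OAS3 (1.5), ISG15 (0.78), PSMB10 (1.00), RELB (1.00), FGB (0.59) and CD55 (1.02).

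On the negative side, the largest rises of vehicle cells gave BLNK (-3.93), INHBE (-3.07), COL4A3 (-2.18), KRT20 (-2.14), KISS1R (-2.01), SLC6A13 (-2.15), COL4A4 (-1.91), ROBO2 (-1.55), CDON (-1.99), PLA1A (-1.41) and SLC44A5 (-1.48). Growth arrest, p53 target, nutrient and glucocorticoid genes on the negative side were CDKN1C (-0.51), CDKN1B (-1.21), CCNG1 (-0.76), CYFIP2 (-1.47), KLHL24 (-2.60), TFCP2L1 (-1.04) and TSC22D3 (-1.34). TMEM170B (-2.89) and KBTBD11 (-2.67), named for the difference alone, were also negative. So were MYC (-0.44) and MDM2 (-0.76) of the control and marker genes. Lipid, amino acid, iron and hypoxia genes there were INSIG1 (-1.06), STARD4 (-0.52), ACSL1 (-0.52), LPIN1 (-1.04), SCD (-0.66), SLC7A11 (-2.40), UGDH (-1.52), GCLM (-0.72), HMOX1 (-1.15), NFE2L2 (-1.03), BNIP3L (-0.79), SLC11A2 (-0.66) and FBXL5 (-0.92). Tubule, junction, contractile, clock and immune genes there were SLC4A4 (-2.05), PDZK1 (-0.57), PAX8 (-0.72), PARD6B (-1.35), OCLN (-0.98), ITGB8 (-0.97), MYL9 (-0.46), VIM (-0.34), MYOF (-0.47), BHLHE41 (-1.03), HLF (-1.37), PER2 (-1.16), CCL2 (-2.21) and CFB (-0.70). Some of these genes, CCND1, CDKN1B, MYC, HMOX1, MDM2, CCN2 and PAX8, were not called in vehicle cells.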

How the results depend on the processing

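Main counts were 744 rises, 925 falls and 115 changes of at least 2-fold, and 1726 positive, 2588 negative and 1229 at least 2-fold differences between the time changes of Aa and vehicle cells. Without the replicate block they were 31, 40 and 29, and 761, 1418 and 978. On the 6 control arrays with the block 547 rose and 567 fell; without the block 0, 0 and 0 passed, while 1836 had an unadjusted p under 0.05. Hybridisation-control scaling gave 124, 3946 and 237, and 762 positive differences; the mean over probe sets left 790 differences of at least 2-fold. Leaving out 1 control array gave 196 to 722 rises, 250 to 812 falls and 63 to 180 changes of at least 2-fold, and 1335 to 1607, 2021 to 2419 and 1131 to 1299 differences. Replicate 3 of 48 h was the array without which rises (722) and falls (812) stayed within 1.5 times the main counts, and without it the changes of at least 2-fold numbered 180. Quantile normalisation, equal array medians, the other filters and the intensity trend kept all 6 counts within 1.5 times; rises and falls were 786 and 784 with equal medians.

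Of the 119 called named genes, 118 passed with quantile normalisation, 114 with equal medians, 80 with hybridisation-control scaling (and B2M turned to -0.061), 98 of 113 with the mean over probe sets, 83 with no filter and 51 to 100 with 1 control array left out. All other reversals were in genes that were not called. Hybridisation-control scaling gave GAPDH -0.29, MYC -0.022, MDM2 -0.29, CDH1 -0.26 and PAX8 -0.20, and the mean over probe sets gave MDM2 -0.012. Leaving out 1 control array moved GAPDH between -0.017 and 0.052, CDKN1A between -0.41 and 0.092, HAVCR1 between -0.033 and 0.0088, MDM2 between -0.033 and 0.13, CCN2 between -0.19 and 0.063, EGFR between -0.071 and 0.018 and CDH1 between -0.25 and 0.25. The causes were not tested, apart from the smaller number of samples that leaving out an array brings. Signals under log2 4, and the number of arrays, limit the smallest change that could be called.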

Other observations

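Gene families by symbol, grouped after the values were seen, gave a few further shares. Kinesin genes (symbols beginning with KIF) fell in 10 of 26 (38.5%) and nucleoporin genes (NUP) in 8 of 24 (33.3%), against 8.27% of all genes. Genes beginning with CEP, for centrosome proteins, fell in 8 of 35, and MRPL genes, for the large subunit of the mitochondrial ribosome, fell in 10 of 49. Long intergenic noncoding RNAs with LINC symbols rose in 9 of 68 and fell in 1, and KLHL genes, for adaptors of ubiquitin ligases, rose in 4 of 22 with none falling. Members of these families partly overlap the mitosis list, and no test was made of them.

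Of the genes that fell at least 2-fold and are in no list, GAL, which encodes the neuropeptide galanin, read 8.93, 8.36 and 9.56 at 24 h and 5.97, 6.69 and 8.38 at 48 h, a fall of 1.94 (SE 0.333, adjusted p = 0.00954) with times that overlapped. S100A2, a calcium-binding protein of epithelia, read 11.91, 12.30 and 11.93 and then 10.24, 10.97 and 11.02, and its fall of 1.30 (SE 0.173, adjusted p = 0.00483) was matched by 1.28 in Aa cells.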
